A study of Bos taurus with 15 samples.

Results

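The 5 genes described here are SPIB (ENSBTAG00000043953), MEIS1 (ENSBTAG00000008448), HEPACAM2 (ENSBTAG00000012456), NOTCH2 (ENSBTAG00000007909), and DPYSL2 (ENSBTAG00000018373), 5 of the 27270 genes listed in the files. They were picked by symbol because earlier results of the same counts showed them high in the epithelium of AD cattle, so the differences that picked them (AD against NB epithelium, epithelium with and without tuft cell genes, and epithelium against leukocytes) are given as descriptions. Each symbol stands for 1 gene in the files.

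SPIB is an Ets-family transcription factor known from B cells, plasmacytoid dendritic cells, and the M cells that cover lymphoid follicles of the gut. MEIS1 is a homeobox transcription factor that binds DNA together with other homeobox proteins. NOTCH2 is a receptor that is cut after it meets a ligand on a neighboring cell, and its inner part then acts with RBPJ in the nucleus; Notch signaling between neighbors sets the balance of absorptive and secretory cells in the gut epithelium. HEPACAM2 is a membrane protein of the immunoglobulin superfamily with high expression in secretory epithelial cells of the gut, and DPYSL2, also called CRMP2, is a cytoplasmic protein that binds tubulin and is best known from growing axons.

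The counts come from droplet-based single-cell RNA sequencing (10x Genomics, 3′ ends) of Holstein cattle, with 11 libraries from NB (newborn) calves and 4 from AD (adult) cattle. Duodenum, jejunum, cecum, and colon had a library of each stage (4 tissues), and the other NB libraries were made from the forestomach (reticulum and omasum), the abomasum (glandular stomach), ileum and rectum, liver, and salivary gland. Each tissue and stage had 1 library, the AD tissues came from 1 lactating cow, and the calf behind each NB library is not given in the sources used here. NB small and large intestine was treated with EDTA and trypsin and then with a lamina propria kit. AD duodenum and cecum were treated with a lamina propria kit alone, and AD jejunum and colon with a multi tissue kit, so stage, animal, and dissociation cannot be told apart. The NB forestomach and abomasum, liver, and salivary gland were digested with other enzyme mixes. Tissue and dissociation therefore cannot be told apart between these NB libraries and those of the NB intestine.

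No test between stages was possible with 1 library per tissue and stage, and no replicate error can be given. UMIs (unique molecular identifiers, which mark single captured transcripts) of each gene were summed over the barcodes of a set and divided by all UMIs of the set, and scaled to a common total, as CPM. Intervals are 95% counting intervals (exact Poisson for CPM, exact binomial for ratios and, as Clopper-Pearson intervals, for shares), and they cover counting error only. For a set with no UMI, the level or share that it still allows is given as 3 counts of the set's total in place of an interval. A gene is called higher or lower in a comparison when its ratio was at least 2 with an interval that leaves out 1, among genes with at least 10 UMIs in both sets together. Because tags come from 3′ ends, transcript length does not enter these levels, but levels of different genes are still best read as orders of magnitude.

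EPCAM barcodes are barcodes with at least 1 UMI of EPCAM, an adhesion molecule of epithelial cells, and none of PTPRC (CD45), the surface phosphatase of leukocytes, and PTPRC barcodes are the reverse. EPCAM barcodes were split by a UMI of AVIL or GNG13, an actin-binding protein and a G protein subunit of tuft cells, the chemosensory cells of the epithelium. Library totals were 17707625 to 129458578 UMIs (median 82195756), and 119798 of 172405 barcodes were kept, 2636 to 11614 per library. The libraries shared 1773 of 118010 distinct barcodes, with at most 0.512% shared by a pair (NB ileum and NB liver). EPCAM barcodes without AVIL or GNG13 numbered 31, 119, 249, and 144 in AD duodenum, jejunum, cecum, and colon and 3373, 1263, 465, and 871 in the NB libraries of the same tissues.

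In 1 library the EPCAM barcodes went against their definition. In AD duodenum the 8 epithelial markers summed to 293 CPM (4 of 8 detected) against 3876 CPM in NB duodenum, and the cytokeratin gene KRT8 stood at 44.6 CPM against 1087 CPM. The 4 plasma cell markers of these AD duodenum barcodes summed to 101400 CPM and the 8 B cell markers to 961 CPM, against 12.7 and 1.1 CPM in NB duodenum. Each count of the stages is therefore also given without the duodenum.

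SPIB was highest in AD epithelium. Its level in EPCAM barcodes without AVIL or GNG13 was 204.5 CPM in AD jejunum, 232.7 CPM in AD cecum, and 395.4 CPM in AD colon. In the NB libraries it ran from 0 CPM in omasum and liver through a median of 2.615 CPM to 42.0 CPM in ileum. The gene was picked for this difference, so nothing is read from the gap between the stages. AD jejunum and AD cecum were not separated beyond their counting intervals (181.9 to 229.2 CPM and 216.7 to 249.5 CPM), whereas AD colon stood above both. Below them came NB ileum and NB duodenum (24.0 CPM), then NB jejunum (11.3 CPM) and NB colon (10.4 CPM), which did not differ beyond counting error. NB salivary gland (23.5 CPM in 35 barcodes, from 5 UMIs) was not separated from any of these NB libraries. With a KRT8 UMI required it stood at 7.193 CPM, beside 12.39 CPM in NB jejunum and 8.393 CPM in NB colon. NB cecum (2.615 CPM) and NB rectum (2.10 CPM) did not differ beyond counting error either. NB rectum moved with the filters, to 8.783 CPM with doublets kept (2.515 CPM in NB cecum) and to 7.631 CPM without the upper limit on genes (1.397 CPM in NB cecum). NB abomasum and reticulum held 2 and 1 UMIs of SPIB in all.

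The ratio of AD to NB was 18.1 (14.9 to 22) in jejunum, 89.0 (51.7 to 168) in cecum, and 38.0 (30.8 to 47.3) in colon. Over the 16 other settings tried it ran from 11.2 (thinned) to 22.6 in jejunum and from 12.8 (barcodes with both EPCAM and PTPRC let in) to 52.5 in colon. In cecum it was 42.1 after thinning, with NB at 0 and set to 3 UMIs, and 787 UMIs in AD stood against 1 in NB with COL1A2 or PECAM1 barcodes left out. More barcodes carried the gene: 39.5%, 44.2%, and 53.5% of these AD barcodes had a UMI of SPIB, against 3.8%, 0.86%, and 4.94% of the NB barcodes, and after each barcode had been thinned to 1000 UMIs the shares were 11.02%, 18.1%, and 30.4% against 1.35%, 0 of 458 barcodes, and 1.39%. Median UMIs per barcode were 12305, 14765, and 12037 in these AD sets and 11154, 8076, and 9416 in the NB sets. In COL1A2 barcodes, which mark fibroblasts and should lack SPIB, 0.763% of 131 AD colon barcodes and 0.102% of 2938 NB jejunum barcodes had a UMI, with median depths of 6799 and 3932 UMIs.

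**Figure D1:**
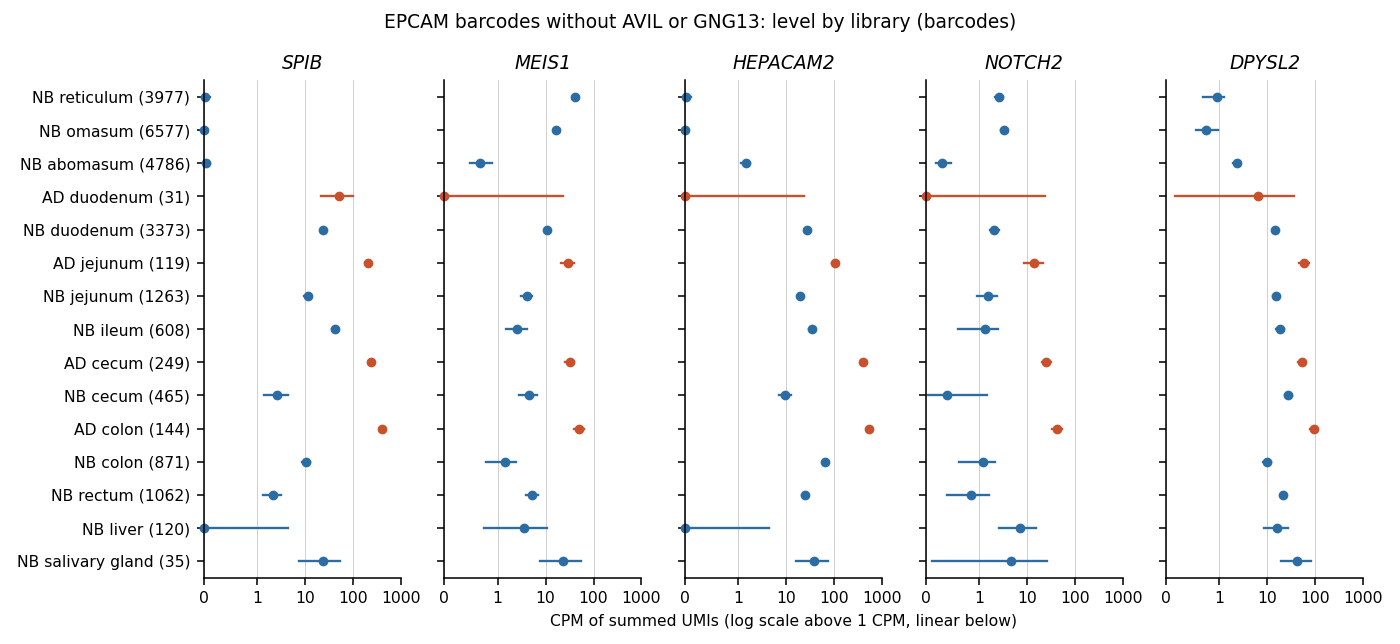
Level of each gene (CPM of summed UMIs, logarithmic above 1 CPM and linear below) in EPCAM barcodes without AVIL or GNG13, by library, with the number of barcodes in parentheses; red points are AD and blue points NB libraries, and lines are 95% counting intervals. The points of AD jejunum, cecum, and colon lie to the right of the NB points for SPIB, HEPACAM2, NOTCH2, and DPYSL2. The interval of DPYSL2 in NB salivary gland reaches past the points of AD jejunum and AD cecum, and MEIS1 in NB reticulum (41.5 CPM) lies between AD cecum and AD colon. The genes were picked for high levels in AD epithelium, and the share of all genes that separate in this way was not counted.

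MEIS1, the other transcription factor, was also higher in AD intestine, but its highest NB level was in another tissue. Its level was 29.6 CPM in AD jejunum, 31.6 CPM in AD cecum, and 50.0 CPM in AD colon, against 4.01, 4.43, and 1.415 CPM in the NB libraries of these tissues. The ratios were 7.39 (4.86 to 11.2), 7.15 (4.49 to 11.9), and 35.3 (19.8 to 67.6), and the call in jejunum was lost after thinning to 1000 UMIs (4.0). The cecum ratio turned on which barcodes were taken as epithelium, with 18.3 when a KRT8 UMI was required (32.48 against 1.775 CPM), 44.3 with barcodes carrying COL1A2 or PECAM1 left out (2 UMIs in NB), and 58.1 with at least 2 UMIs of EPCAM. In colon it ran from 20.6 to 51.5 over the settings, and thinning left 6 UMIs in AD and 1 in NB, too few to be compared. Among NB libraries MEIS1 was highest in the squamous epithelium of the reticulum, with 41.5 CPM (2009 UMIs). NB salivary gland (23.5 CPM, 5 UMIs, 7.634 to 54.87 CPM) and omasum, the other forestomach library (16.8 CPM, 1199 UMIs), did not differ beyond counting error, and NB duodenum followed with 10.9 CPM. The level in NB reticulum was within the counting interval of AD colon (39.5 to 62.4 CPM), and NB abomasum was lowest with 0.66 CPM.

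NOTCH2, the receptor, was counted least. It stood at 14.5 CPM in AD jejunum (21 UMIs), 25.7 CPM in AD cecum (87 UMIs), and 43.6 CPM in AD colon (68 UMIs), against 1.547 CPM (22 UMIs), 0.402 CPM (2 UMIs), and 1.21 CPM (12 UMIs) in NB. The ratios were 9.35 (4.89 to 17.8) in jejunum, 63.9 (17.2 to 536) in cecum, and 35.9 (19.3 to 72.9) in colon, and the width of the interval in cecum comes from the 2 NB UMIs. After thinning, NOTCH2 was nearly uncounted: 0 UMIs in AD against 1 in NB jejunum and 6 against 2 in colon were too few to be compared. In cecum 10 UMIs against 0, set to 3, gave a ratio of 6.28, which was called. Across the 11 NB libraries NOTCH2 ran from 0.314 CPM in abomasum to 7.22 CPM in liver, with a median of 1.547 CPM. The AD levels of jejunum, cecum, and colon were higher than these, a difference for which the genes were picked.

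HEPACAM2, the membrane protein, reached the highest level of the 5 genes. It stood at 104.7 CPM in AD jejunum, 399.4 CPM in AD cecum, and 523.6 CPM in AD colon, against 19.7, 9.46, and 63.0 CPM in NB. The ratios were 5.32 (4.34 to 6.50), 42.2 (31.6 to 57.8), and 8.31 (7.48 to 9.24). Over the settings the jejunum ratio ran from 4.01 to 6.81, that in cecum from 28.0 to 76.2, and that in colon from 4.7 (stricter mitochondrial limit) to 13.3 (no upper limit on genes). NB colon (58.12 to 68.11 CPM) stood above NB ileum (34.5 CPM, 30.17 to 39.24), but neither was separated from NB salivary gland (37.6 CPM from 8 UMIs, 16.24 to 74.12), and no UMI was counted in NB omasum or NB liver. Without the upper limit on genes NB colon fell to 34.6 CPM beside 35.71 CPM in NB salivary gland and 32.9 CPM in NB ileum.

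DPYSL2, the tubulin-binding protein, was higher in AD jejunum and colon, and its ratios turned on which barcodes were taken as epithelium. Its level was 58.5 CPM in AD jejunum, 51.7 CPM in AD cecum, and 92.9 CPM in AD colon, against 15.3, 27.6, and 9.91 CPM in NB. It was called higher in jejunum, with a ratio of 3.82 (2.94 to 4.93), and in colon, with 9.38 (7.21 to 12.2), but not in cecum, where the ratio was 1.88. With a KRT8 UMI required, the jejunum ratio was 15.2 (62.36 against 4.104 CPM) and the colon ratio 14.6 (91.76 against 6.267 CPM). With at least 2 UMIs of EPCAM the jejunum ratio was 14.8, with barcodes carrying COL1A2 or PECAM1 left out 7.53, and with barcodes of both EPCAM and PTPRC let in 2.49, where colon had 4.93. In cecum it was called higher without COL1A2 or PECAM1 UMIs (5.8), with a KRT8 UMI required (5.68; 53.31 against 9.382 CPM), with at least 2 UMIs of EPCAM (10.2), without the upper limit on genes (3.13), and after thinning (2.64), which on the other hand ended the call in jejunum (1.9). The cecum ratio was 0.898 and not called when barcodes with both EPCAM and PTPRC were let in. The highest NB level was 42.3 CPM (19.4 to 80.3) in salivary gland, which fell to 7.193 CPM, under NB liver (13.78 CPM), with a KRT8 UMI required, and the lowest was 0.745 CPM in omasum.

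In AD duodenum none of the 5 genes was called in either direction with the filters used throughout. SPIB had 8 UMIs (50.9 CPM, 21.98 to 100.3), DPYSL2 had 1, and MEIS1, HEPACAM2, and NOTCH2 had none in 31 barcodes, which allows up to 19.1 CPM. These values change with the doublet filter: with the barcodes of high doublet score kept, the set held 52 barcodes, SPIB stood at 290.4 CPM, MEIS1 at 81.2 CPM, HEPACAM2 at 84.3 CPM, NOTCH2 at 21.9 CPM, and DPYSL2 at 53.1 CPM. All 5 were then called higher than in NB duodenum (10.8, 6.84, 2.85, 9.48, and 3.02), beside 10.8% of all genes. SPIB was also called higher without the upper limit on genes (2.88), without mitochondrial and top genes in the total (2.54), and with barcodes of both EPCAM and PTPRC let in (2.04), where MEIS1 (0.3) and HEPACAM2 (0.121) were called lower. HEPACAM2 was called lower under the stricter mitochondrial limit as well (0.37).

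Over the 4 tissues, 14 of 20 pairs of gene and tissue were called higher in AD epithelium and 0 lower (14 and 0 of 15 without the duodenum). After thinning 10 were called higher, since the calls of MEIS1 and DPYSL2 in jejunum ended, MEIS1 in colon and NOTCH2 in jejunum and colon had under 10 UMIs, and DPYSL2 in cecum was gained. The shares of all genes called higher were then 5.18%, 6.65%, 10.2%, and 15.9% in duodenum, jejunum, cecum, and colon. Of all genes measured, 8.75% were called higher in duodenum, 11.4% in jejunum, 9.47% in cecum, and 19.6% in colon, and 9.09%, 9.6%, 18.0%, and 6.5% were called lower. These shares move with the scaling, since a median of ratios shifted all log2 ratios by 0.4, 0.25, 0.14, and 0.47 in these tissues, and higher calls then made up 33.8%, 36.8%, 26.7%, and 41.8% of all calls instead of 49.1%, 54.4%, 34.5%, and 75.1%. The number of member calls was 14 under this scaling and under the trimmed mean of M values. Since this comparison picked the genes, nothing is read from their count beside these shares.

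**Figure D2:**
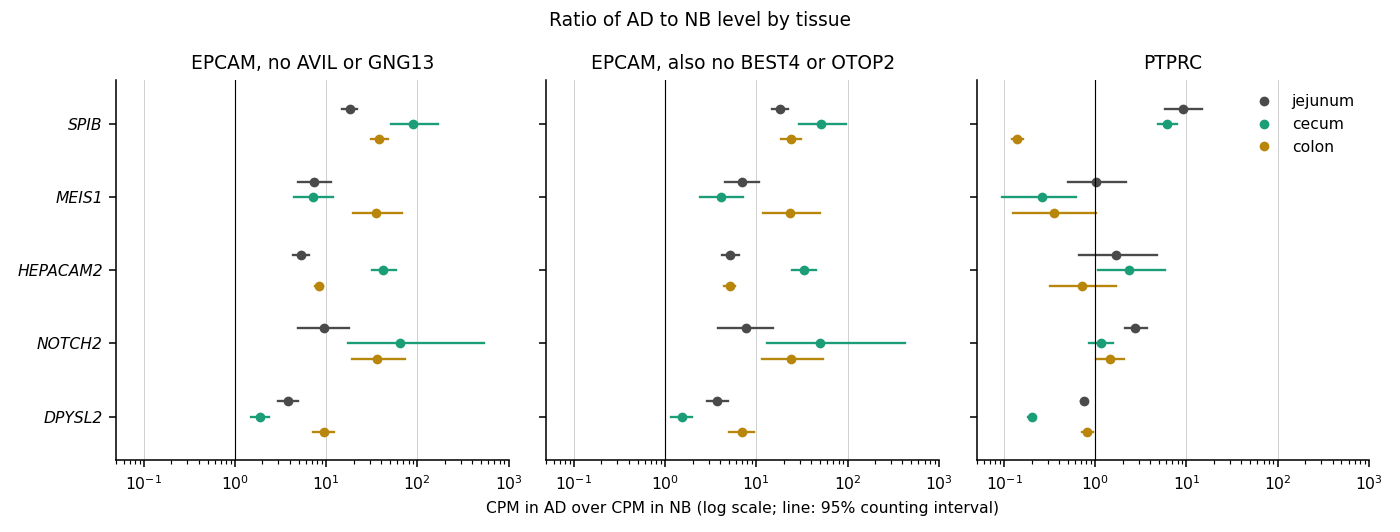
Ratio of AD to NB level (logarithmic axis, lines are 95% counting intervals) for the 5 genes in jejunum, cecum, and colon, in EPCAM barcodes without AVIL or GNG13, in the same barcodes without BEST4 or OTOP2, and in PTPRC barcodes. In the first set of barcodes all ratios lie above 1, from 1.88 (DPYSL2 in cecum) to 89.0 (SPIB in cecum), whereas in PTPRC barcodes they lie on both sides of 1.

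Markers of other epithelial and non-epithelial cells moved in the same AD barcodes, and their part in the ratios above was not tested. Of the 8 markers of BEST4 cells (absorptive cells with the channel BEST4, the proton channel OTOP2, and the hormone gene GUCA2A), 6 of 6 measured were called higher in AD cecum and 5 of 6 in AD colon, but 0 of 3 in AD jejunum, beside 9.47%, 19.6%, and 11.4% of all genes. The shares of all genes called lower, for the lists that follow, were 9.6% in jejunum, 18.0% in cecum, and 6.5% in colon. The summed level of the BEST4 cell markers was 18770 CPM in AD cecum against 1186 CPM in NB cecum, 22050 CPM in AD colon against 2591 CPM in NB colon, and 1956 CPM in AD jejunum against 1281 CPM in NB jejunum. This sum includes GUCA2A, which in NB colon was in 77.59% of EPCAM barcodes without SPIB, although 5 of 877 EPCAM barcodes had BEST4 or OTOP2. It is therefore not a measure of BEST4 cells alone. Goblet cell markers were called higher for 4 of 7 in jejunum and 6 of 7 in cecum, but for 2 of 7 in colon, where 3 were lower and the transcription factor genes SPDEF and ATOH1 had no UMI in AD. Cycling and stem cell markers were called lower for 3, 4, and 6 of 8 and higher for 0. Stromal markers were called lower for 7 of 8 in jejunum and 7 of 7 in cecum and higher for 6 of 7 in colon, with summed levels of 0.7, 0.3, and 533 CPM in AD against 498, 3717, and 95.6 CPM in NB. Plasma cell markers were called higher for 4, 2, and 3 of 4, and summed to 9815, 1926, and 4627 CPM in AD against 13.4, 409, and 146 CPM in NB. B cell markers summed to 41.3, 21.6, and 10.2 CPM in AD against 2.5, 12.9, and 64.0 CPM in NB. They were thus higher in AD jejunum and cecum and lower in AD colon, and their part in the SPIB level was not tested.

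Among the AD EPCAM barcodes, those with AVIL or GNG13 had a higher CPM of SPIB than the rest, by a margin that depends on the scaling. There were 75 such barcodes in AD jejunum, 29 in AD cecum, 16 in AD colon, and 1 in AD duodenum, and they carried the tuft cell genes POU2F3 at 54.7, 99.0, and 65.1 CPM and TRPM5 at 39.8, 99.0, and 83.7 CPM, which the barcodes without AVIL or GNG13 had at 0 to 0.689 and 0 to 4.49 CPM. SPIB stood at 763.4, 585.2, and 873.9 CPM with and 204.5, 232.7, and 395.4 CPM without, ratios of 3.73, 2.52, and 2.21. Under the median of ratios and the trimmed mean of M values SPIB was still called in jejunum (2.43 and 2.57), but in neither cecum (just under 2, and 1.56) nor colon (1.7 and 1.56). HEPACAM2 was 276.0 against 104.7 CPM in jejunum, a ratio of 2.64 (2.05 to 3.39), but 396.2 against 399.4 CPM in cecum and 762.3 against 523.6 CPM in colon, where it was not called. DPYSL2 was 57.2 against 58.5 CPM, 90.04 against 51.7 CPM, and 195.2 against 92.9 CPM, and was called in colon (2.10, 1.26 to 3.33). The calls of HEPACAM2 in jejunum (1.72 and 1.82) and DPYSL2 in colon (1.62 and 1.49) were lost under both other scalings.

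MEIS1 and NOTCH2 were hardly counted in these barcodes. MEIS1 had no UMI in the 75 and 29 barcodes with AVIL or GNG13 of AD jejunum and cecum and 1 UMI in the 16 of AD colon, and was at least 3.97-fold lower in jejunum. In colon MEIS1 was 9.297 against 50.0 CPM, a ratio of 0.186 (0.00465 to 1.07) that was not called with totals but was called lower under both other scalings (0.143 and 0.132). In cecum the number of UMIs was too small for a difference to be detectable. NOTCH2 had 2, 0, and 0 UMIs in them and was not called in any of the 3 tissues with totals. Under the other scalings it was called lower in jejunum (0.224 and 0.237) and, with 3 UMIs put in for its count of 0, in colon (0.494 and 0.453), but not in cecum.

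Of the 20 pairs of gene and AD library, 5 were called higher with AVIL or GNG13, 1 lower, and 5 had under 10 UMIs, beside 7.11%, 22.5%, 14.4%, and 10.6% of all genes higher in duodenum, jejunum, cecum, and colon and 3.04%, 7.19%, 3.06%, and 3.4% lower. The duodenum shares set 1 barcode against 31 (1548 genes measured) and are not a usable background, and those of colon rest on 16 barcodes with AVIL or GNG13. No minimum number of barcodes was set for the AD libraries, whereas NB libraries needed 20 of each set. Without the duodenum the counts were 5 and 1 of 15. The direction of these counts depends on the scaling: under the median of ratios and under the trimmed mean of M values, 1 pair was called higher (SPIB in jejunum) and 4 lower (MEIS1 and NOTCH2 in jejunum and colon).

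In NB libraries, barcodes with AVIL or GNG13 numbered 48 in reticulum, 49 in omasum, 52 in abomasum, and 6 or fewer in each library of small or large intestine. In NB abomasum nearly all SPIB was in these barcodes, since SPIB stood at 178.4 CPM (96 UMIs) with and 0.0314 CPM (2 UMIs) without, and HEPACAM2 at 104.1 CPM with and 1.415 CPM without, a ratio of 73.6 (51.7 to 104). MEIS1 and NOTCH2 had no UMI in these 52 barcodes, but stood at only 0.660 and 0.314 CPM in the rest. With 538056 UMIs in the 52 barcodes, a difference at such levels was not detectable. In reticulum and omasum neither POU2F3, TRPM5, SPIB, nor HEPACAM2 had a UMI in the barcodes with AVIL or GNG13, and MEIS1 was 23.8 against 41.5 CPM and 13.1 against 16.8 CPM. Of 15 pairs, 2 were called higher and 0 lower, beside 2.07%, 1.49%, and 13.5% of all genes higher in reticulum, omasum, and abomasum and 2.33%, 1.57%, and 0.812% lower.

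A second set of epithelial barcodes, chosen after its values had been seen, carried all 5 genes. Barcodes with a UMI of BEST4 or OTOP2 made up 20.5% of the EPCAM barcodes of AD cecum (57 of 278), 25.6% of AD colon (41 of 160), and 1.03% of AD jejunum (2 of 194). In NB they were 30 of 3376 in duodenum (0.889%), 3 of 1265 in jejunum, 5 of 877 in colon, and 0 of 466 in cecum, which allows up to 0.644%. Only 1 barcode of these tissues, in AD colon, also had AVIL or GNG13.

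Within AD cecum, barcodes with BEST4 or OTOP2 held SPIB at 581.6 CPM against 133.6 CPM in the rest of the EPCAM barcodes without AVIL or GNG13, a ratio of 4.35 (3.77 to 5.02). MEIS1 was 78.9 against 18.2 CPM (4.33), HEPACAM2 700.6 against 313.9 CPM (2.23), NOTCH2 45.5 against 20.1 CPM (2.26), and DPYSL2 86.9 against 41.8 CPM (2.08). AD colon showed the same order of sets for each gene, with SPIB at 809.9 against 213.1 CPM (3.8, 3.22 to 4.49), MEIS1 at 98.6 against 28.6 CPM (3.45), HEPACAM2 at 1001 against 313.7 CPM (3.19), NOTCH2 at 81.8 against 26.8 CPM (3.06), and DPYSL2 at 157.4 against 64.6 CPM (2.44).

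The 30 barcodes of NB duodenum reached similar levels at the newborn stage. SPIB stood at 504.0 against 21.2 CPM, a ratio of 23.8 (19.4 to 28.8), and MEIS1 at 309.2 against 9.16 CPM, a ratio of 33.8 (25.9 to 43.5). HEPACAM2 was 457.4 against 24.7 CPM (18.5), NOTCH2 55.1 against 1.79 CPM (30.7), and DPYSL2 148.2 against 13.7 CPM (10.8). MEIS1 was therefore higher in these NB barcodes than in the BEST4 or OTOP2 barcodes of AD cecum and colon, and the other 4 genes were of the same order in the 3 libraries. In the 10 such barcodes of NB ileum, too few for a call, SPIB stood at 332.6 CPM (37 UMIs), HEPACAM2 at 206.8 CPM (23 UMIs), and MEIS1 at 35.96 CPM (4 UMIs).

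All 5 genes were called in these 3 libraries, beside 4.03%, 3.99%, and 8.64% of all genes in AD cecum, AD colon, and NB duodenum. In AD cecum the call of HEPACAM2 was lost under the median of ratios and that of DPYSL2 under both other scalings. In the forestomach, 47 (reticulum) and 98 (omasum) barcodes entered this set, all by OTOP2, since no EPCAM barcode there had a UMI of BEST4. Whether they are BEST4 cells was not tested. SPIB and HEPACAM2 had no UMI in them. Of 10 pairs only NOTCH2 in reticulum was called (8.27 against 2.54 CPM, 6 UMIs against 121, ratio 3.26, 1.17 to 7.30), beside 1.05% of all genes in reticulum and 0.583% in omasum. With the BEST4 or OTOP2 barcodes of the intestine left out, 14 of 15 pairs were still called higher in AD than in NB epithelium, beside 11.4%, 8.73%, and 19.3% of all genes in jejunum, cecum, and colon. SPIB was then 18.1-fold, 51.1-fold, and 23.9-fold higher, MEIS1 7.03-fold, 4.12-fold, and 23.5-fold, HEPACAM2 5.21-fold, 33.2-fold, and 5.12-fold, and NOTCH2 7.66-fold, 50.0-fold, and 24.0-fold, and DPYSL2 in cecum was the pair not called (1.52). A UMI of BEST4 or OTOP2 misses cells in which neither was captured, so the barcodes left in are not free of such cells.

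**Figure D3:**
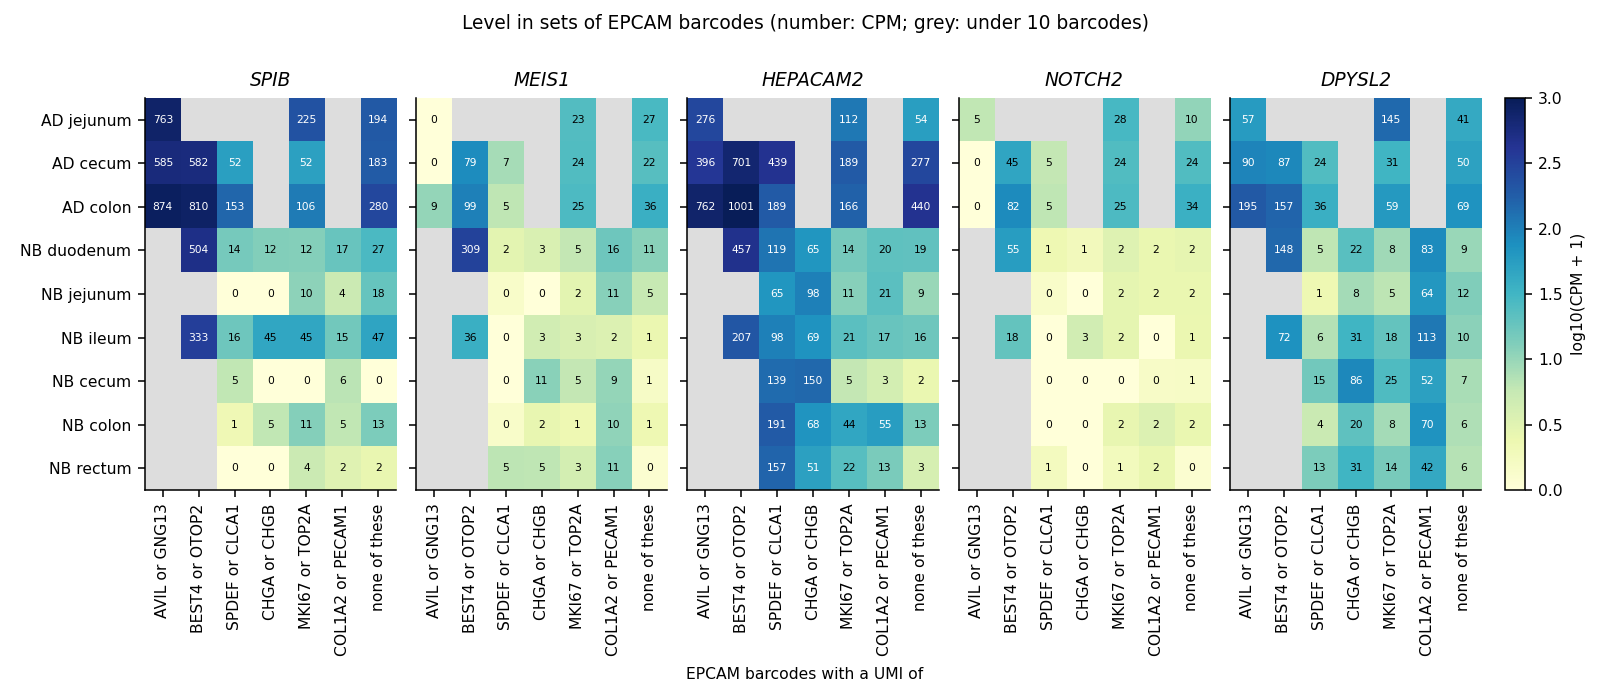
Level of each gene (number and color, CPM on a log10 color scale) in sets of EPCAM barcodes that carry a UMI of the genes named below the columns, by library; grey cells had under 10 barcodes, and a barcode may be in several sets. In these intestinal libraries (the forestomach is not drawn) the BEST4 or OTOP2 column is the darkest for MEIS1, HEPACAM2, and NOTCH2 wherever it holds a value, and SPIB in AD cecum and colon is as dark in the AVIL or GNG13 column, whereas in the NB libraries without a drawn BEST4 or OTOP2 cell HEPACAM2 is darkest in the columns of SPDEF or CLCA1 or of CHGA or CHGB.

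HEPACAM2 was also high in secretory barcodes of the NB intestine. In NB barcodes with SPDEF or CLCA1, a transcription factor and a secreted protein of goblet cells, HEPACAM2 stood at 138.9 CPM in cecum, 191.1 CPM in colon, 157.4 CPM in rectum, 119.4 CPM in duodenum, 97.8 CPM in ileum, and 64.6 CPM in jejunum, against 3.98, 18.5, 5.04, 19.7, 16.1, and 10.6 CPM in the other EPCAM barcodes. In NB barcodes with the chromogranin genes CHGA or CHGB, which mark hormone-secreting cells, it stood at 150.0 CPM in cecum, 97.8 CPM in jejunum, 64.8 CPM in duodenum, 68.8 CPM in ileum, 51.2 CPM in rectum, and 68.0 CPM in colon, against 6.77, 16.65, 26.1, 32.9, 23.8, and 62.6 CPM in the rest, so colon showed little difference. In AD cecum the goblet barcodes differed little from the others (439.4 against 386.5 CPM), and in AD colon, where SPDEF had no UMI, they were lower (188.9 against 571.6 CPM). SPIB in these goblet barcodes was 52.1 CPM in AD cecum against 291.1 CPM in the other EPCAM barcodes, and 0 to 15.97 CPM in the NB libraries of the intestine. MEIS1 in them was 7.26 against 39.5 CPM in AD cecum and 0 to 5.297 CPM in the NB intestine. In NB abomasum, by contrast, CHGA was in 6 of the 40 EPCAM barcodes with MEIS1 (5.71 to 29.84%) and in 3.52% of those without. COL1A2 was in 11 of these 40 (14.6 to 43.89%) and in 7.65% of those without, and the part of stromal transcripts in this MEIS1 level was not tested.

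The genes that stood out in barcodes with a UMI of HEPACAM2, ranked after the values had been seen and among EPCAM barcodes without AVIL or GNG13, differed by tissue. SPINK4, a secreted protease inhibitor of goblet cells, and the lysozyme gene LYSB were among the first 8 in 6 of the 9 libraries that had 20 such barcodes. In AD cecum SPINK4 was 17000 CPM with HEPACAM2 and 41.2 CPM without, and in AD jejunum 14050 against 92.7 CPM. In NB abomasum GHRL, the gene of the stomach hormone ghrelin, came first, with 240500 CPM in 29 barcodes with HEPACAM2 and 13.9 CPM in the rest. Another 24 EPCAM barcodes with HEPACAM2 in this library had AVIL and did not enter the ranking. In AD colon the first 2 were instead GUCA2B and GUCA2A, which encode the guanylin peptides.

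In several NB libraries DPYSL2 and MEIS1 were partly carried by barcodes that also held stromal or endothelial UMIs. In NB EPCAM barcodes with a UMI of COL1A2 (a collagen) or PECAM1 (an endothelial adhesion molecule), DPYSL2 stood at 51.7 CPM in cecum, 41.9 CPM in rectum, 82.5 CPM in duodenum, 64.2 CPM in jejunum, and 113.3 CPM in ileum, against 8.92, 6.345, 8.62, 7.50, and 12.45 CPM in the rest. MEIS1 was 9.23 against 0.713 CPM in cecum, 11.2 against 0.835 CPM in rectum, and 11.2 against 2.86 CPM in jejunum. In NB duodenum, however, most UMIs of MEIS1 (395) were in barcodes without COL1A2 or PECAM1. In the forestomach COL1A2 was about as frequent with as without MEIS1 (1.176% against 0.969% in reticulum, 1.649% against 1.805% in omasum). In NB cecum these 196 of 465 barcodes held 20 of the 22 UMIs of MEIS1 and 112 of the 137 UMIs of DPYSL2. In AD jejunum and AD cecum the stromal markers were near 0, and with such barcodes left out 15 of 20 pairs were called higher in AD, DPYSL2 in cecum being the one gained, beside 9.23%, 13.8%, 11.1%, and 19.5% of all genes in duodenum, jejunum, cecum, and colon.

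Levels outside the epithelium set the scale for this. In COL1A2 barcodes without EPCAM, PTPRC, or PECAM1, MEIS1 ran from 27.6 CPM (salivary gland) to 84.5 CPM (omasum) with a median of 42.9 CPM over 10 NB libraries, and was 66.4 CPM in AD colon. DPYSL2 ran from 71.1 to 279.6 CPM in the same NB barcodes and from 81.7 to 160.3 CPM in NB PECAM1 barcodes, above its level in NB EPCAM barcodes of the same library. MEIS1 was low in PECAM1 barcodes, with 0 to 5.78 CPM. HEPACAM2 did not exceed 3.39 CPM in COL1A2 barcodes or 2.99 CPM in PECAM1 barcodes, and SPIB did not exceed 9.73 CPM in COL1A2 barcodes. In PECAM1 barcodes SPIB had a median of 0.516 CPM in NB and 5.12 CPM in AD, but reached 41.5 CPM in AD cecum (10 UMIs) and 34.4 CPM in NB salivary gland (3 UMIs).

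Within EPCAM barcodes of several libraries the 5 genes were found together, though not in the forestomach. In NB duodenum, 286 EPCAM barcodes had a UMI of SPIB, and 62.2% of these had MEIS1, 74.1% HEPACAM2, 19.9% NOTCH2, and 41.3% DPYSL2, against 1.845%, 5.405%, 0.647%, and 7.90% of the barcodes without SPIB, although the barcodes with SPIB were shallower (median 6838.5 against 12708 UMIs). In AD cecum (131 barcodes with SPIB) the shares were 45.0%, 90.8%, 40.5%, and 68.7% against 2.72%, 29.9%, 4.76%, and 6.12%. In AD colon (89 barcodes) they were 51.7%, 94.4%, 44.9%, and 68.5% against 8.45%, 8.45%, 4.225%, and 12.7%. There the barcodes with SPIB were deeper (median 12705 against 9046 UMIs).

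In AD jejunum HEPACAM2 was in 73.1% of the 108 barcodes with SPIB against 10.5% of the rest, and MEIS1 in 19.4% against 1.16%. NOTCH2 was in 13.0% (7.272 to 20.79%) against 3.49% (0.7252 to 9.858%), with overlapping intervals. DPYSL2 was in 43.52% against 10.47%, with separate intervals. AVIL was in 50.9% of the barcodes with SPIB. In NB jejunum 42.9% of 49 barcodes with SPIB had MEIS1, against 1.81%. HEPACAM2 (46.94% against 9.128%), NOTCH2 (16.33% against 1.069%), and DPYSL2 (36.73% against 9.704%) were separated there as well. In NB abomasum, where 87.5% of the 32 barcodes with SPIB had AVIL, 78.1% had HEPACAM2, 9.38% had DPYSL2, and none had MEIS1 or NOTCH2, which allows up to 9.375%. Barcodes without SPIB had MEIS1 in 0.832% and NOTCH2 in 0.395%, so no difference was detectable for these 2 genes. In NB ileum HEPACAM2 was in 23.6% of 110 barcodes with SPIB and 15.9% of the rest, with intervals that overlapped (16.06 to 32.68% and 12.79 to 19.36%). MEIS1 (8.18% against 0.595%) and DPYSL2 (23.64% against 8.73%) were separated there, but NOTCH2 was not (2.727% against 1.19%). In NB colon MEIS1 (10.64% against 0.723%), NOTCH2 (10.64% against 0.843%), and DPYSL2 (34.04% against 5.301%) were separated. HEPACAM2 was narrowly separated in NB colon, with 34.04% (20.86 to 49.31%) against 17.71% (15.17 to 20.48%). NB ileum also had MS4A1, a B cell surface gene, in 55.5% against 25.2%. NB colon had MS4A1 in 38.3% of 47 against 5.42%, whereas in AD jejunum, cecum, and colon the shares were 0.926%, 2.29%, and 1.12% against 4.65%, 4.76%, and 0% of the barcodes without SPIB. The part of B cell transcripts in the SPIB level of NB ileum and NB colon was not tested. In the forestomach, where MEIS1 was counted most often, NOTCH2 was in 3.32% of 1445 barcodes with MEIS1 and 2.98% of the rest in reticulum and in 2.91% of 1031 and 3.56% in omasum. DPYSL2 was in 1.315% against 1.085% and 0.582% against 0.715%, so neither gene differed beyond counting error.

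**Figure D4:**
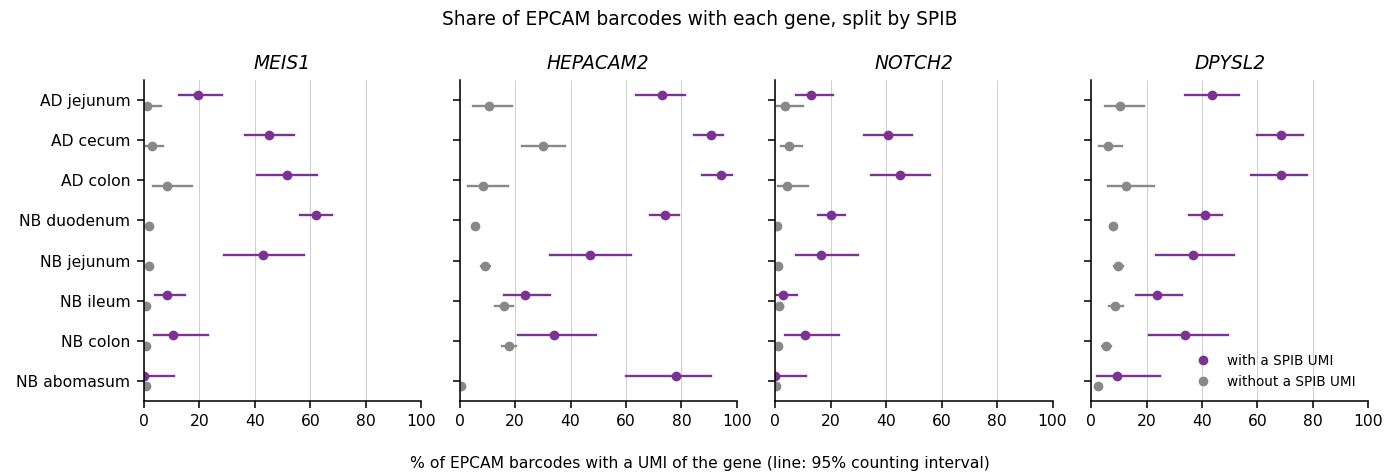
Share of EPCAM barcodes with a UMI of MEIS1, HEPACAM2, NOTCH2, or DPYSL2 (percent, lines are 95% Clopper-Pearson intervals) among barcodes with a UMI of SPIB (purple) and without (grey), by library. The purple points lie far to the right in AD cecum, AD colon, and NB duodenum, and for NB abomasum for HEPACAM2 (78.1%). For MEIS1 and NOTCH2 in NB abomasum both points lie near 0 (0% with SPIB, 0.832% and 0.395% without).

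Over all ordered pairs of the 5 genes and all libraries with 20 barcodes of the first gene, the interval of the share with the first gene lay above that without it for 65.3% of 176 pairs that could be formed. After thinning to 1000 UMIs it did so for 28.9% of 76 pairs. A relation can enter in both orders, depth is shared within a barcode, and the share for pairs of other genes was not computed. Nothing is therefore read from these 2 shares about the 5 genes. In thinned NB duodenum barcodes MEIS1 was in 25.5% of 110 barcodes with SPIB and 1.26% of the rest, HEPACAM2 in 33.6% against 2.46%, and DPYSL2 in 10.9% against 2.395%. In thinned AD cecum HEPACAM2 was in 47.5% of 59 barcodes with SPIB against 25.9%, and MEIS1 in 5.08% against 4.245%, so a pairing with MEIS1 was not detectable at that depth. In thinned AD jejunum HEPACAM2 was in 24.07% (13.49 to 37.64%) of 54 against 10.95% (6.259 to 17.42%), with overlapping intervals, and in thinned AD colon in 57.69% of 52 against 19.0%. DPYSL2 in thinned AD cecum was in 22.03% (12.29 to 34.73%) against 4.717% (2.285 to 8.503%), with separate intervals, and NOTCH2 in 3.39% against 3.30%. DPYSL2 was not separated in thinned AD jejunum (5.556% against 5.109%) or AD colon (7.692% against 6.0%). MEIS1 and NOTCH2 were not separated in thinned AD colon either, each with 5.769% (1.206 to 15.95%) against 3.0% (0.623 to 8.518%).

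The genes with the largest rise in barcodes with a UMI of SPIB, again ranked after the values had been seen and among EPCAM barcodes without AVIL or GNG13, recurred between libraries. CFD, complement factor D, and GUCA2B were among the first 8 in 6 of the 7 libraries that had 20 such barcodes with SPIB, and MASP1, a protease of the lectin pathway of complement, in 5. NB abomasum was not ranked, and GUCA2B was in 0 of its 32 EPCAM barcodes with SPIB, most of which had AVIL. CFD stood at 75830 CPM with SPIB against 332.7 CPM without in NB duodenum, at 74050 against 365.3 CPM in NB jejunum, at 91140 against 680.5 CPM in AD jejunum, and at 13790 against 268.0 CPM in AD cecum. MASP1 stood at 119.0 against 0.335 CPM in NB duodenum, 113.2 against 0.507 CPM in NB jejunum, 80.8 against 1.08 CPM in AD cecum, and 165.5 against 3.14 CPM in AD colon. In AD cecum and colon OTOP2 and CA7, a carbonic anhydrase of BEST4 cells, were also among the first 8, and MEIS1 itself was among them in NB duodenum (173.9 against 1.78 CPM) and AD jejunum (77.3 against 2.17 CPM). MASP1 was among the first 8 for MEIS1 in 4 of 9 libraries and for NOTCH2 in 3 of 6.

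In PTPRC barcodes the 5 genes did not move together between the stages. SPIB was higher in AD duodenum (26.5 against 0.675 CPM, ratio 39.2, 16.7 to 121, with 5 NB UMIs), AD jejunum (8.01 against 0.885 CPM, 9.05), and AD cecum (20.75 against 3.38 CPM, 6.14), but lower in AD colon (9.68 against 69.2 CPM, 7.14-fold lower). NOTCH2 was higher in AD duodenum (5.59 against 2.29 CPM, 2.44) and AD jejunum (7.57 against 2.74 CPM, 2.76). DPYSL2 was lower in AD duodenum (23.0 against 99.6 CPM, ratio 0.231) and AD cecum (17.4 against 87.0 CPM, ratio 0.2), as was MEIS1 in AD cecum (0.246 against 0.954 CPM, 7 against 24 UMIs). HEPACAM2 was under 1 CPM in every PTPRC set and was called in cecum alone (0.843 against 0.358 CPM, 24 against 9 UMIs).

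Of 20 pairs, 6 were called higher, 4 lower, and 1 had under 10 UMIs, beside 22.9%, 16.0%, 20.8%, and 14.9% of all genes higher in duodenum, jejunum, cecum, and colon and 19.2%, 12.6%, 23.1%, and 20.5% lower. Without the duodenum the counts were 4 and 3 of 15.

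SPIB in PTPRC barcodes was higher beside B cell genes than beside T cell genes in most libraries. The highest levels over all libraries were in NB ileum (110.1 CPM, with a UMI in 40.9% of 2480 barcodes) and NB colon (69.2 CPM). In barcodes with MS4A1 or CD79A, genes of the B cell surface and receptor, SPIB was 138.9 CPM in AD duodenum, 65.1 CPM in AD jejunum, 100.2 CPM in AD cecum, and 59.2 CPM in AD colon, against 11.54, 1.79, 7.60, and 2.97 CPM in barcodes with the T cell genes CD3E or CD3D. In NB the same order held in ileum (134.7 against 62.1 CPM), colon (115.3 against 14.3 CPM), cecum (13.8 against 0.212 CPM), rectum (13.8 against 0.908 CPM), liver (17.4 against 2.29 CPM), and salivary gland (49.4 against 7.53 CPM). NB jejunum had 6.54 CPM (7 UMIs) beside the B cell genes and no UMI beside the T cell genes, NB abomasum had 1 UMI in each, and NB duodenum had none in its 26 and 53 barcodes. Barcodes with the macrophage genes CSF1R or C1QA had 5.13 to 19.3 CPM in the 4 AD libraries. In AD cecum and colon the CPM of SPIB in B cell barcodes was below that in EPCAM barcodes of the same library (232.7 and 395.4 CPM), whereas in NB ileum and NB colon it was above it. DPYSL2 in PTPRC barcodes differed from this, with 8.15 to 34.6 CPM beside CD3E or CD3D and 38 to 108.3 CPM beside CSF1R or C1QA.

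**Figure D5:**
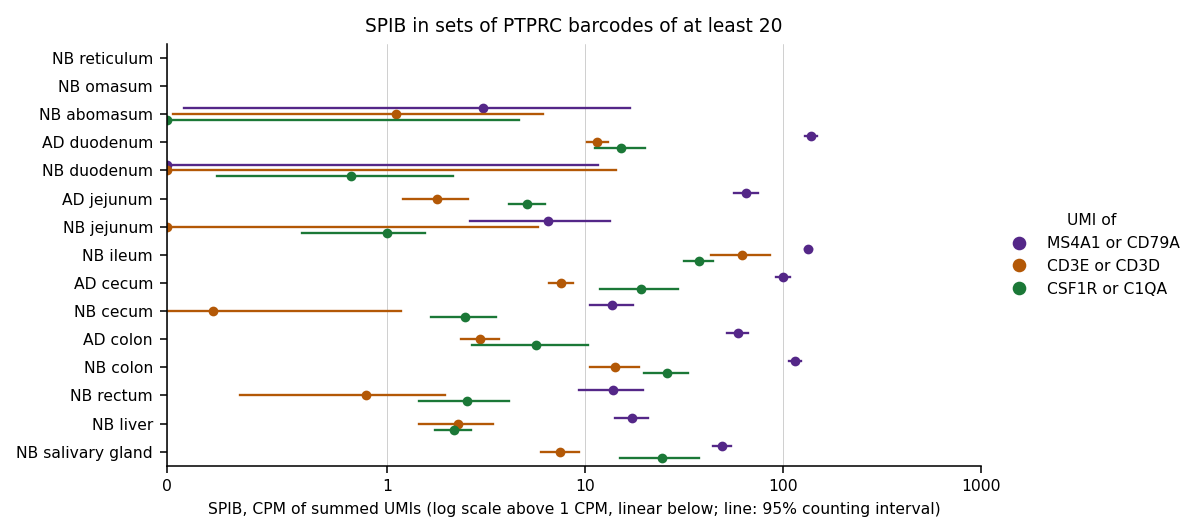
Level of SPIB (CPM, logarithmic above 1 CPM and linear below, lines are 95% counting intervals) in PTPRC barcodes with a UMI of B cell (MS4A1 or CD79A), T cell (CD3E or CD3D), or macrophage genes (CSF1R or C1QA), by library; sets under 20 barcodes are not drawn. The B cell points lie to the right in each AD library (59.2 to 138.9 CPM) and in NB ileum (134.7 CPM) and NB colon (115.3 CPM), but near 0 in NB duodenum.

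Set against PTPRC barcodes of the same library, HEPACAM2 was called higher in epithelium in most libraries and DPYSL2 in few. For HEPACAM2 the EPCAM barcodes without AVIL or GNG13 were higher in 10 of 13 libraries, with ratios of 211 in AD jejunum, 474 in AD cecum, and 811 in AD colon and of 26.4 to 253 in NB. MEIS1 was called higher in 8 of 13 libraries, with ratios of 48.9, 129, and 172 in these AD libraries and 4.64 to 6.79 in NB. Of its 5 NB calls, those in cecum (4.64) and rectum (5.21) were lost with at least 2 UMIs of EPCAM (0.574 and 1.0), without COL1A2 or PECAM1 UMIs (1.16 and 0.964), and with a KRT8 UMI (1.86 and 1.71). SPIB was called higher in 5 (AD jejunum 25.5, AD cecum 11.2, AD colon 40.8, NB duodenum 35.6, and NB jejunum 12.8) and lower in NB ileum (0.381) and NB colon (0.151). The SPIB call in NB ileum was lost with barcodes of both EPCAM and PTPRC let in (0.555) and after thinning (0.506). SPIB in AD duodenum was not called here, but was called higher under both other scalings (2.49 and 2.41) and without mitochondrial and top genes in the total (2.71). It was also called higher there with the mean CPM of barcodes (3.52), after thinning (5.2), and with doublets kept (11.1). NOTCH2 was called higher in AD cecum (7.11) and AD colon (8.09). In AD jejunum NOTCH2 was not called here, but it was called higher under both other scalings (2.01 and 2.06) and with doublets kept (2.18). It was also called higher there under the stricter mitochondrial limit (3.66), with at least 2 UMIs of EPCAM (2.02), and with a KRT8 UMI (2.11). NOTCH2 was called lower in 5 NB libraries. Of these lower calls, that in NB ileum was lost under both other scalings (0.562 and 0.532), with doublets kept (0.597), and under each other definition of the epithelium by EPCAM, COL1A2, or KRT8, and that in NB abomasum was lost under both other scalings (0.381 and 0.393). DPYSL2 was called higher in AD cecum (2.98), AD colon (3.72), and NB salivary gland (2.58, from 9 UMIs in EPCAM barcodes), and lower in 8 of the 9 NB libraries, down to 0.0371 in abomasum. The salivary gland call turned to 0.753 without COL1A2 or PECAM1 UMIs, 0.388 with at least 2 UMIs of EPCAM, and 0.439 with a KRT8 UMI. It was also lost under both other scalings (1.98), as was the lower call in NB ileum (0.55 and 0.521). The lower call in NB rectum (0.401) was lost under the stricter mitochondrial limit (0.707) and with barcodes of both EPCAM and PTPRC let in (0.506). It was also lost without mitochondrial and top genes in the total (0.532), with the mean CPM of barcodes (0.679), and after thinning (0.538). That in NB colon was lost with the mean CPM of barcodes (0.506). In all, 28 of 65 pairs were called higher and 15 lower.

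Of all genes, the shares called higher in EPCAM than in PTPRC barcodes were 1.81%, 15%, 19.6%, and 22.0% in AD duodenum, jejunum, cecum, and colon. In NB they were 6.08% in abomasum, 21.4%, 23.4%, and 17.8% along the small intestine (duodenum, jejunum, and ileum), 22.0%, 19.1%, and 26.9% along the large intestine (cecum, colon, and rectum), 22.9% in liver, and 13.7% in salivary gland. The shares called lower were 6.03%, 19.5%, 23.8%, and 15.8% in the same 4 AD libraries. In NB they were, in the same order, 45.2% in abomasum, 21.2%, 21.3%, and 19.0% in the small intestine, 17.8%, 27.0%, and 20.3% in the large intestine, 11.7% in liver, and 5.58% in salivary gland. The count of members is again a description, since this comparison was part of how the genes were picked.

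Other genes of the Notch pathway moved in both directions between AD and NB epithelium. Of all genes, 11.4%, 9.47%, and 19.6% were called higher and 9.6%, 18.0%, and 6.5% lower in jejunum, cecum, and colon. The calls that follow are given with totals alone, and a median of ratios shifted log2 ratios by 0.25, 0.14, and 0.47 in these tissues. Stromal markers in the same barcodes were lower in AD jejunum and cecum and higher in AD colon. The part of stromal, endothelial, and leukocyte transcripts in the calls of Notch pathway genes was not tested. Of the other 3 receptors, NOTCH3 was called higher in all 3 tissues (22.7 against 9.49 CPM in jejunum, 6.21 against 2.01 CPM in cecum, and 23.1 against 3.03 CPM in colon, ratios of 2.39, 3.09, and 7.61), NOTCH4 was lower in jejunum and cecum, and NOTCH1 was lower in cecum (2.66 against 7.85 CPM). Of 5 ligands, 0, 0, and 1 were called higher and 1, 2, and 2 lower in jejunum, cecum, and colon, with DLL1 lower in each (ratios of 0.4, 0.47, and 0.413) and JAG1 higher in colon (2.41). Median log2 ratios of the ligands were -0.49, -0.39, and -0.84 beside 0.12, 0.01, and 0.34 over all genes. Among 18 measured genes of receptor processing and trafficking, 3, 1, and 3 were called higher and 2, 4, and 3 lower, and both LFNG, a glycosyltransferase that modifies Notch receptors (ratios of 0.476, 0.277, and 0.148), and DTX1, a Notch-binding ubiquitin ligase (0.397 as an upper bound with no UMI in AD jejunum, 0.143, and 0.208), were lower in each tissue.

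Beside the same shares of all genes, nuclear partners were called higher for 2 of 6, 1 of 7, and 4 of 7 and lower for 0, and RBPJ, the DNA-binding partner of cleaved Notch, was not called (0.925, 0.684, and 0.997). Of the target genes, 1 of 7, 1 of 5, and 0 of 5 were called higher and 1, 2, and 2 lower. HES1, the target with the most UMIs, was 253.4 against 217.3 CPM in jejunum, 330.6 against 267.4 CPM in cecum, and 427.4 against 322.6 CPM in colon and was not called. ATOH1, the secretory factor that HES1 represses, was 30.3 against 10.8 CPM in jejunum and 44.65 against 5.23 CPM in cecum, and had no UMI in AD colon against 54.0 CPM in NB colon, where it was at least 28.1-fold lower.

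Relatives and partners of the other members moved in part, again with totals alone. Many NB cecum barcodes of this set also held COL1A2 or PECAM1 UMIs, and their part in the cecum calls was not tested. MEIS2, a homeobox gene of the same family as MEIS1, was lower in AD cecum (0 against 49 UMIs). SPI1, the Ets factor of myeloid cells closest to SPIB, was not called in jejunum (1.7) and was lower in cecum (1 against 115 UMIs) and colon (1 against 61 UMIs). Partners of SPIB in lymphoid cells split by tissue, since IRF8 and IRF4 were higher in jejunum (19.6 and 12.4) and colon (13.5 and 2.5) and lower in cecum (0.217 and 0.173). In the same barcodes plasma cell markers summed higher in AD jejunum, cecum, and colon, and B cell markers in AD jejunum and cecum but not in colon. The part of plasma cell and B cell transcripts in the calls of IRF8 and IRF4 was not tested. Of the other CRMP family genes, 2 were measured in jejunum and cecum and 1 in colon, and 2 were lower in cecum, where 18.0% of all genes were called lower.

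Over 59 profiles (library by EPCAM with, EPCAM without, PTPRC, COL1A2, and PECAM1 barcodes) and 7662 genes, the Pearson correlation of log2(CPM + 5) gives the genes most like each member, as a description, since profiles of a library share its depth and animal. For SPIB these were STRBP (0.782), HEPACAM2 (0.766), ATP2A3 (0.757), INPP5B (0.75), and PLCG2 (0.734), and for HEPACAM2 UGT8 (0.925), RASEF (0.908), ADGRG7 (0.897), FAM3B (0.891), and PPP1R14D (0.889). For MEIS1 they were OSBPL5 (0.862), TMEM117 (0.853), LPAR1 (0.843), ROBO1 (0.842), and DSEL (0.835), for NOTCH2 MASP1 (0.661), ADCY5 (0.658), OTOP2 (0.647), NDRG3 (0.6), and IPMK (0.593), and for DPYSL2 PEAK1 (0.794), FLOT1 (0.787), LEPROT (0.784), MOSPD2 (0.779), and SAMD4A (0.779). Between members the correlation was 0.766 for SPIB and HEPACAM2, 0.426 for MEIS1 and NOTCH2, 0.314 for HEPACAM2 and NOTCH2, and 0.313 for SPIB and NOTCH2. It was 0.056 for MEIS1 and HEPACAM2 and -0.168 for SPIB and MEIS1. For DPYSL2 it was -0.035 with SPIB, 0.196 with MEIS1, -0.101 with HEPACAM2, and 0.138 with NOTCH2.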

How the data were processed

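Single-cell RNA sequencing counts of 15 libraries (11 NB and 4 AD) were used. The authors counted UMIs per gene and barcode with Cell Ranger 3.1.0 on ARS-UCD1.2, and the deposited values are whole-number counts without normalization. The annotation release is not given in the sources used here.

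Kept barcodes had between 500 and 4000 genes, fewer than 50000 UMIs, and less than 40% of UMIs from mitochondrial genes. A doublet score was computed for each barcode from 2 simulated doublets per barcode in 30 principal components of 2000 variable genes, after the Scrublet approach, and 0.8% of barcodes per 1000 in the library, those with the highest scores, were removed. DoubletFinder was not run. Sets of barcodes were defined by UMIs of the named genes, without clustering. In ratios, a set without a UMI entered at 3 UMIs, which gives "at least". Low UMI numbers limit the precision, and shares were also computed after thinning to 1000 UMIs.

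The 5 genes, the gene lists, and the rule for named genes were chosen with earlier results of these data known. The named genes are the 5 members, the genes that define the sets, examples from the lists, and the 5 genes most correlated with each member among genes that reach 50 CPM. The sets by BEST4, SPDEF, CHGA, COL1A2, MS4A1, CD3E, and CSF1R and the ranked genes were added after values had been seen. Alternatives changed the filters, the definition of the sets, the scaling, the thinning, and the fold. The calling of ratios was checked on simulated counts. Python 3.11.15, NumPy 2.4.6, SciPy 1.17.1, pandas 2.3.3, scikit-learn 1.9.0, and matplotlib 3.10.9 were used. The list of homeobox genes related to MEIS1 is not reported here in full. No sequence is printed, since none of the tables used here holds one.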

Additional observations from a re-analysis of the deposited data

How the results depend on the processing

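No paired analysis was possible because the labels give no shared replicate numbers and all AD tissues came from 1 cow, so tissues are not replicates of a stage. With 1 library per tissue and stage no library could be left out within a stage; without the duodenum the AD against NB counts in epithelium stayed at 14 higher and 0 lower. Over the alternatives for AD against NB in epithelium, 10 (thinned) to 19 (doublets kept) pairs were called higher, and 1 (mitochondrial share under 10%) and 2 (EPCAM or PTPRC whatever the other) were called lower in place of 0. In PTPRC barcodes the 6 higher calls became 3 after thinning and 3 at a ratio of at least 4. With against without AVIL or GNG13 in AD, the 5 higher calls became 1 under the median of ratios, 1 under the trimmed mean of M values, 3 with the mean CPM of barcodes, and 0 at a ratio of at least 4, and the 1 lower call became 3 (mitochondrial share under 10%), 4 and 4 (both scalings), 2 (total without mitochondrial and top genes), 2 (mean CPM), 0 (thinned), and 0 (ratio of at least 4). In NB the 0 lower calls became 1 under the stricter mitochondrial limit and 1 with the mean CPM. For EPCAM against PTPRC barcodes the 15 lower calls became 7 after thinning and 7 at a ratio of at least 4. The share of pairs seen together fell from 65.3% to 28.9% after thinning, which leaves fewer UMIs, and no share for pairs of other genes was computed at either depth.

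Called ratios of EPCAM to PTPRC barcodes that crossed 1 were those of MEIS1 in NB cecum (0.574) and NB rectum (1.0) with at least 2 UMIs of EPCAM, MEIS1 in NB rectum (0.964) and DPYSL2 in NB salivary gland (0.753) without COL1A2 or PECAM1 UMIs, DPYSL2 in NB salivary gland with at least 2 UMIs of EPCAM (0.388) or with a KRT8 UMI (0.439), and NOTCH2 in NB cecum after thinning (1.35). Ratios of EPCAM to PTPRC barcodes that crossed 1 from no call to a call were those of SPIB in NB rectum (2.22 when the upper gene limit was dropped and 2.44 with doublets kept), DPYSL2 in AD duodenum (2.19 with doublets kept), and HEPACAM2 in NB abomasum (0.196 with EPCAM or PTPRC whatever the other), which was called higher under the median of ratios (6.86), the trimmed mean (7.07), and the total without mitochondrial and top genes (6.93). Those of AD to NB epithelium were all in duodenum, namely DPYSL2 (3.02) and HEPACAM2 (2.85) with doublets kept and MEIS1 (0.3) with EPCAM or PTPRC whatever the other. Of all single ratios but the called ones that crossed 1, 1632 stayed within their counting interval and 335 moved beyond it. The alternatives with a KRT8 UMI, without the duodenum, and without BEST4 or OTOP2 barcodes were chosen after seeing the data. The cause of these changes was not tested except where fewer UMIs or a stricter fold make the change. Counts of 20 UMIs or fewer, as for NOTCH2, limit what the data can show.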
